A study of Mus musculus with 45 samples.

Results

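The 9 interferon-stimulated genes described here, Oasl2, Ifit1, Ifit3, Isg15, Irf7, Stat2, Bst2, Usp18 and Rsad2, were chosen by name. The choice was made with earlier results of these data known. All 9 had a row among the 34994 genes of the deposited count tables. They were followed in forelimbs that were cut from CD1 mouse embryos at gestation day 13 and cultured. The limbs were exposed in culture bottles to the vehicle DMSO, to 10 µM bisphenol S (BPS) or to 50 µM BPS, and RNA was taken after 3, 24 or 48 h, which gave 9 groups of 5 libraries. BPS is a bisphenol that is used in place of bisphenol A. Limbs were pooled, limbs of male and female embryos shared a bottle, and all bottles received the same gas mixture of 5% CO2 and 50% O2. An explanted limb has no blood supply. For the group of 50 µM at 48 h, the strain is labelled CD2 to CD6 in place of CD1, and its libraries were treated as CD1.

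Type I interferons are secreted proteins that bind a receptor at the cell surface and activate the Janus kinases Jak1 and Tyk2. Stat2 is phosphorylated by the kinases and takes part with Irf9 in a complex that binds a DNA element called the interferon-stimulated response element (ISRE) in the promoters of interferon-stimulated genes. The products of these genes block viral entry, translation, replication or release, and a low level of expression is kept without infection in many cell types, macrophages among them.

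In the deposited tables the genes stand on the mouse build mm10. The effector genes were Oasl2 at chr5:114896936-114912234 (+ strand), Ifit1 at chr19:34640871-34650009 (+), Ifit3 at chr19:34583531-34588731 (+), Isg15 at chr4:156199424-156200818 (-), Bst2 at chr8:71534255-71537456 (-) and Rsad2 at chr12:26442746-26456452 (-). The regulators were Irf7 at chr7:141262706-141266481 (-), Stat2 at chr10:128270559-128292849 (+) and Usp18 at chr6:121245906-121270917 (+). All 9 are protein coding. Irf7 overlaps Phrf1 on the other strand and Usp18 overlaps the gene model Gm44148 on the other strand. Nothing in the labels says that strand was kept, so reads of these neighbours could not be told from those of Irf7 and Usp18, whose values are uncertain to that extent. Ifit1 and Ifit3 have close paralogs in the same cluster, and their reads could be split or shared among the copies.

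Promoter windows from RefSeq (build GRCm38.p6), 250 bases before to 50 bases after the annotated start, were found for 8 of the 9 genes. The ISRE core GAAANNGAAA (N is any base), searched on both strands, occurred in 6 of these 8 windows. Of the other type I interferon targets, 15 of 36 genes with a window had a match. Over the whole set a match was in 3.44% of 32851 windows and 3.99% of 27025 genes. Isg15 held 3 overlapping matches that began 78, 72 and 66 bases before the start, and Bst2 held 2 overlapping matches that began 130 and 124 bases before it. Ifit1 and Ifit3 held 2 matches each, Stat2 and Rsad2 held 1 each, and the ISRE letters were not in the windows of Oasl2 and Irf7. The element TTCNNNGAA, the core of the interferon gamma activated site, occurred in 1 of the 8 windows, that of Bst2, where it overlaps the ISRE match, and in 8.30% of all windows. Windows are printed for Isg15 and Bst2, which rose in culture and hold several matches, and for Oasl2, the gene called lower with 50 µM BPS. They run 5′ to 3′ on the strand of the gene, with the ISRE matches in capitals. The Isg15 window is chr4:156200769-156201068 (-), the Bst2 window chr8:71537423-71537722 (-) and the Oasl2 window chr5:114896684-114896983 (+).
Isg15: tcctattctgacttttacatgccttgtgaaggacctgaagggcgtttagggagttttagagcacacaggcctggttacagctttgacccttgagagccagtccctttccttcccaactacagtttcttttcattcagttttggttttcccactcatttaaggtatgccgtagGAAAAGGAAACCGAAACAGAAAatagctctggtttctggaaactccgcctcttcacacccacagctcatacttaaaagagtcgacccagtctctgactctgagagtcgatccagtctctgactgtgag
Bst2: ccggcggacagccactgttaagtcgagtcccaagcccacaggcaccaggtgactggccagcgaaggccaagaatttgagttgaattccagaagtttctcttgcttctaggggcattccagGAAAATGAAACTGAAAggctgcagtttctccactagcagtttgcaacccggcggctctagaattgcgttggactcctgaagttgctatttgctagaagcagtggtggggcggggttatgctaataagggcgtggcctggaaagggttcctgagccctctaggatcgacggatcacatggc
Oasl2: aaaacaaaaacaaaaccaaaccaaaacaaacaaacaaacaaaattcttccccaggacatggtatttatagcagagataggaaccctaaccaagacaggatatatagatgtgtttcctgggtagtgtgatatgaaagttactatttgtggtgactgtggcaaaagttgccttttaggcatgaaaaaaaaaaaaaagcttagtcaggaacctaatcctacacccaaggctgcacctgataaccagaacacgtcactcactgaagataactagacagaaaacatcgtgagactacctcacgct

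**Figure D1:**
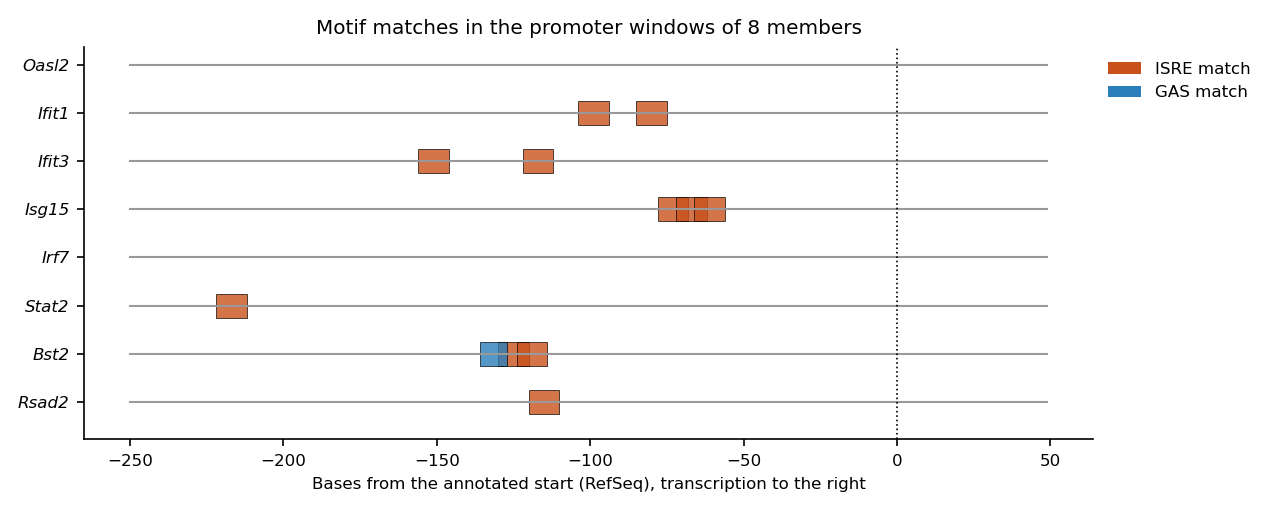
Matches of the ISRE and the interferon gamma activated site (GAS) in the promoter windows of 8 interferon-stimulated genes, by distance in bases from the annotated start, with transcription to the right. Matches lie before the start in 6 genes, and the lines of Oasl2 and Irf7 carry none.

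The libraries held 15.2 to 23.1 M reads assigned to genes, and the unit of a level is CPM, the count per M reads, after TMM scaling, a correction for differences in library composition. A count of 3 reads corresponds to 0.13 to 0.197 CPM, which covers counting error only. Differences are log2 fold changes from the quasi-likelihood test of edgeR, given with their standard error, and a gene was called changed at a Benjamini-Hochberg adjusted p below 0.05 over all genes tested. All 10 forelimb and limb mesenchyme markers were detected in every group. Whether the 5 libraries of a group stem from separate bottles or litters is not labelled, and p-values measure only their spread, which may be technical.

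Most of the 9 genes were expressed at a low level. Per kilobase of gene length, Bst2 had the highest mean over the 45 libraries at 6.73 CPM per kb (group means 4.43 to 10.1), followed by Stat2 at 5.66 CPM per kb (5.34 to 6.25). Isg15 stood at 1.16 CPM per kb (0.735 to 2.24), Rsad2 at 0.772 (0.617 to 0.944), Ifit3 at 0.435 (0.287 to 0.553) and Irf7 at 0.402 CPM per kb (0.243 to 0.585). Usp18 at 0.296, Ifit1 at 0.222 and Oasl2 at 0.190 CPM per kb were the lowest. Neighbours in this order overlapped in the range of their group means, except that Stat2 lay wholly above Isg15 and Rsad2 wholly above Ifit3. In reads, Stat2 had 477 to 900 per library, Bst2 49 to 239 and Rsad2 29 to 116, while Ifit1, with 3 to 39 reads, was the sparsest on average. Isg15 was the only one of the 9 with a library at 0 reads.

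**Figure D2:**
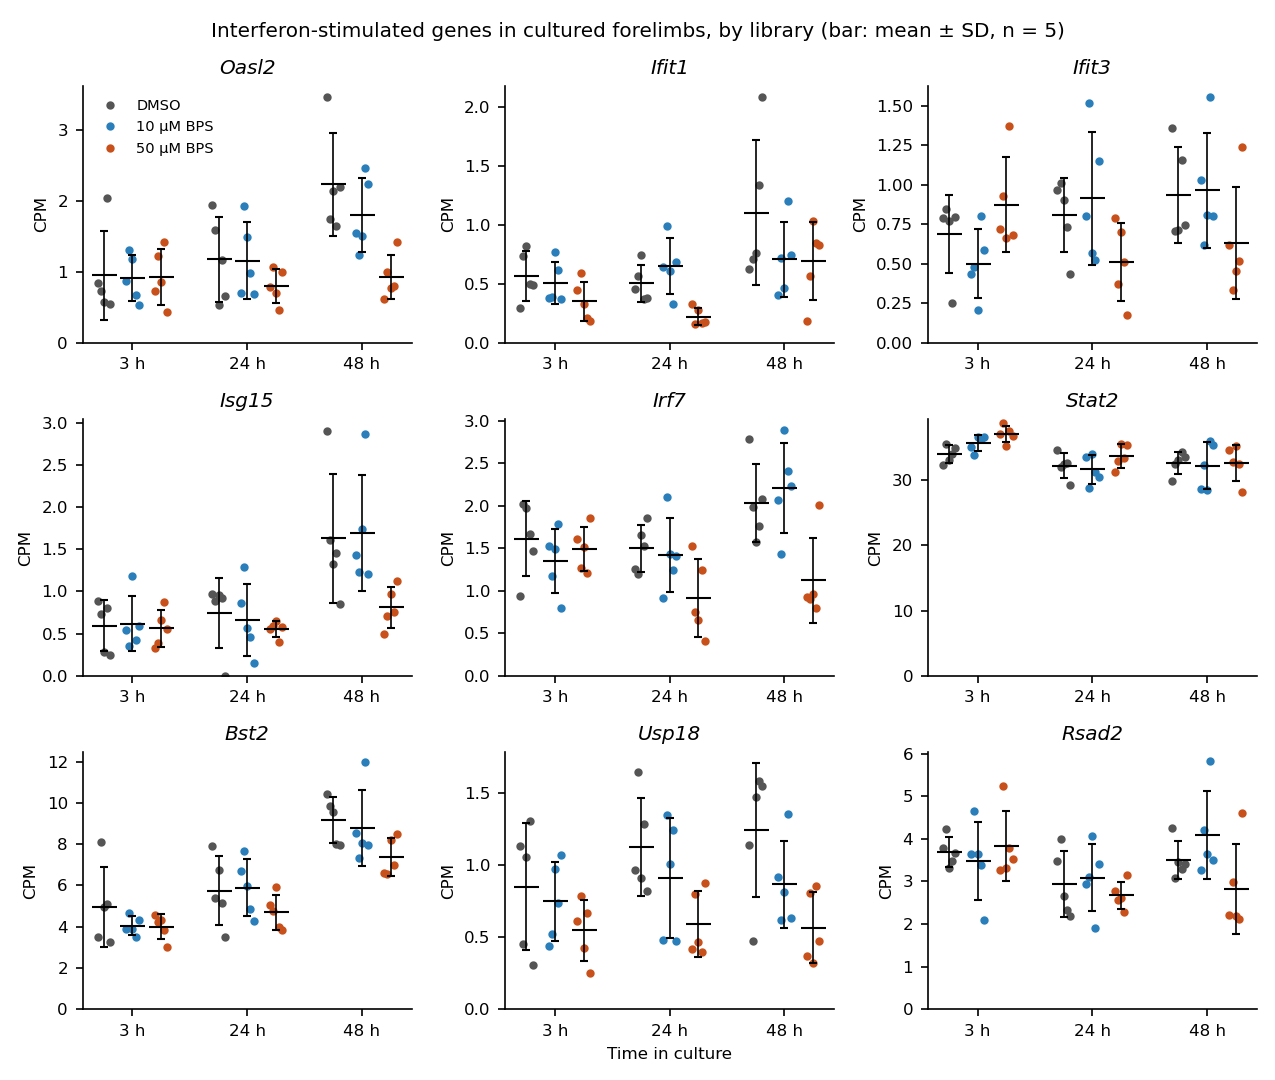
CPM of the 9 genes in each of the 45 libraries, by time in culture and dose; bars are the mean and SD of 5 libraries. Oasl2, Isg15 and Bst2 are higher at 48 h than at 3 h in DMSO limbs, and at 48 h the 5 Oasl2 values of 50 µM BPS lie below all 5 of DMSO.

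Time in culture came with higher levels of several effectors in DMSO limbs. Between 48 h and 3 h, 3 of the 9 genes rose (Oasl2, Isg15 and Bst2) and none fell, where 49.3% of all 16850 genes tested changed and 24.5% rose. The median log2 difference of the 9 genes was 0.51, against -0.01 over all genes tested. The share of the 9 genes that rose was thus near that of all genes.

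Isg15 encodes a ubiquitin-like protein that is attached to other proteins. In DMSO limbs it had 2.90, 1.61, 1.32, 1.46 and 0.855 CPM at 48 h, against 0.886, 0.732, 0.288, 0.807 and 0.245 CPM at 3 h. The groups overlapped only at the lowest 48 h library, and the log2 difference was 1.43 ± 0.39 (adjusted p = 0.00542, edgeR). Oasl2, a relative of the oligoadenylate synthetases that sense double-stranded RNA, had 3.46, 1.75, 2.13, 1.64 and 2.19 CPM in DMSO limbs at 48 h, against 0.836, 0.732, 0.577, 2.05 and 0.550 CPM at 3 h. The 3 h library at 2.05 CPM lay among the 48 h values, all other 3 h libraries lay below them, and the log2 difference was 1.24 ± 0.34 (adjusted p = 0.00668, edgeR).

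Bst2 encodes tetherin, a membrane protein that holds budding virus particles on the cell. It had 10.4, 9.84, 9.55, 8.02 and 7.96 CPM in DMSO limbs at 48 h, against 3.49, 8.11, 4.95, 5.09 and 3.24 CPM at 3 h. The 3 h library at 8.11 CPM reached into the 48 h range, and the log2 difference was 0.87 ± 0.20 (adjusted p = 0.00185, edgeR). Between 48 h and 24 h Bst2 was the only one of the 9 genes called in DMSO limbs, where 16% of all genes tested changed. Its 24 h libraries stood at 7.92, 5.38, 6.77, 5.14 and 3.50 CPM, all below those at 48 h, as for 7.43% of all genes tested, and the log2 difference was 0.67 ± 0.18 (adjusted p = 0.0153, edgeR). The calls of Isg15, Oasl2 and Bst2 between 48 h and 3 h and that of Bst2 between 48 h and 24 h remained when any 1 library was left out.

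Ifit1, whose product binds foreign RNA by its 5′ end, averaged 1.10 ± 0.616 CPM at 48 h and 0.566 ± 0.209 CPM at 3 h in DMSO limbs (SD, n = 5 each). Its log2 difference of 0.93 ± 0.39 did not pass the threshold (adjusted p = 0.0591, edgeR). The remaining 5 genes, Ifit3, Irf7, Stat2, Usp18 and Rsad2, had log2 differences between -0.09 and 0.51 with adjusted p-values from 0.292 to 0.65. No member was called between 24 h and 3 h in DMSO limbs, where 40.2% of all genes tested changed, 8 members were tested and 0 had an unadjusted p below 0.05. Ifit1 was left out there by the filter on low counts.

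In limbs with 10 µM BPS, 5 of the 9 genes rose between 48 h and 3 h and none fell, where 55% of all genes tested changed and 27.7% rose. Isg15 had 1.44, 1.23, 1.74, 2.86 and 1.21 CPM at 48 h, against 0.544, 0.348, 1.18, 0.431 and 0.588 CPM at 3 h. The groups did not overlap, and the log2 difference was 1.46 ± 0.35 (adjusted p = 0.00131, edgeR). Bst2 had 8.55, 7.35, 8.05, 12.01 and 7.98 CPM at 48 h, against 3.86, 4.66, 3.90, 3.51 and 4.33 CPM at 3 h, again without overlap, with a log2 difference of 1.12 ± 0.15 (adjusted p = 1.93e-06, edgeR). These were 2 of 9 genes with 48 h libraries wholly above the 3 h libraries, against 20.7% of all genes tested. Oasl2 rose by a log2 difference of 0.96 ± 0.29 (adjusted p = 0.00842, edgeR) with overlapping groups.

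The other 2 calls at 10 µM between 48 h and 3 h depended on single libraries. Irf7, the transcription factor that drives interferon alpha genes, had a log2 difference of 0.71 ± 0.25 (adjusted p = 0.0212, edgeR), and the adjusted p was 0.056 without 3 h replicate 5 and 0.0646 without 48 h replicate 3. Ifit3, a partner of Ifit1 in RNA binding, had a log2 difference of 0.96 ± 0.36 (adjusted p = 0.0299, edgeR). The adjusted p of Ifit3 was 0.0613, 0.0565 and 0.0795 without 3 h replicates 1, 2 and 3, and 0.0554 and 0.118 without 48 h replicates 1 and 4. Between 48 h and 24 h at 10 µM, where 24.1% of all genes tested changed, Isg15 and Bst2 rose, by log2 differences of 1.36 ± 0.38 (adjusted p = 0.0133) and 0.58 ± 0.16 (adjusted p = 0.0122, edgeR). Between 24 h and 3 h, where 42.9% of all genes tested changed, Bst2 rose by a log2 difference of 0.52 ± 0.16 (adjusted p = 0.0127), and Stat2 fell with a log2 difference of -0.18 ± 0.064 (adjusted p = 0.0259, edgeR). The Bst2 call was lost without 24 h replicate 2 (adjusted p = 0.0541), and the Stat2 call without 3 h replicate 5 (0.0548), 24 h replicate 2 (0.0659) or 24 h replicate 4 (0.0504).

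In limbs with 50 µM BPS, 1 of the 9 genes rose and 1 fell between 48 h and 3 h, where 57.5% of all genes tested changed, 28.3% upward and 29.2% downward. Bst2 had 6.60, 6.56, 8.21, 6.99 and 8.52 CPM at 48 h, against 4.56, 4.21, 4.35, 3.83 and 3.03 CPM at 3 h. The groups did not overlap, as for 21.8% of all genes tested in this direction, and the log2 difference was 0.87 ± 0.14 (adjusted p = 1.43e-05, edgeR). Against 24 h, with 5.05, 4.75, 5.93, 3.98 and 3.85 CPM, the 48 h libraries were again all higher, as for 11.2% of all genes tested, with a log2 difference of 0.63 ± 0.14 (adjusted p = 0.00216, edgeR), where 28.5% of all genes tested changed. Of the 9 genes 6 passed the low count filter in that comparison, and Bst2 was the only one of these called. Ifit1, left out by the filter, had 3 to 7 reads per library at 24 h and 3 to 18 at 48 h. Fits that kept Ifit1 called it higher. Its log2 differences were 1.59 ± 0.53 with no low count filter (adjusted p = 0.0211) and 1.52 ± 0.53 with the replicate block (adjusted p = 0.0422, both edgeR). They were 1.58 ± 0.44 in the fit of 45 libraries (adjusted p = 0.0052, edgeR) and 1.62 ± 0.55 with DESeq2 (adjusted p = 0.0175).

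Stat2, a signal transducer of the interferon receptor, had 34.7, 32.8, 35.2, 32.5 and 28.2 CPM at 48 h with 50 µM, against 37.0, 38.8, 35.3, 37.5 and 36.7 CPM at 3 h. All 48 h libraries lay below the 3 h libraries, as for 20.7% of all genes tested, and the log2 difference was -0.19 ± 0.066 (adjusted p = 0.0151, edgeR), which gave an adjusted p of 0.0579 without 48 h replicate 5. Rsad2, which encodes the antiviral enzyme viperin, fell between 24 h and 3 h at 50 µM, where 43.4% of all genes tested changed. It had 2.78, 2.56, 2.61, 2.27 and 3.15 CPM at 24 h, against 3.28, 5.24, 3.31, 3.79 and 3.53 CPM at 3 h. The groups did not overlap, as for 14.1% of all genes tested in this direction, and the log2 difference was -0.54 ± 0.18 (adjusted p = 0.0202, edgeR). Without 3 h replicate 2 the adjusted p was 0.0876, and without 24 h replicate 4 it was 0.0566. Isg15 and Oasl2 had log2 differences of 0.48 ± 0.35 (adjusted p = 0.253) and -0.05 ± 0.33 (adjusted p = 0.904, edgeR) between 48 h and 3 h at 50 µM.

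**Figure D3:**
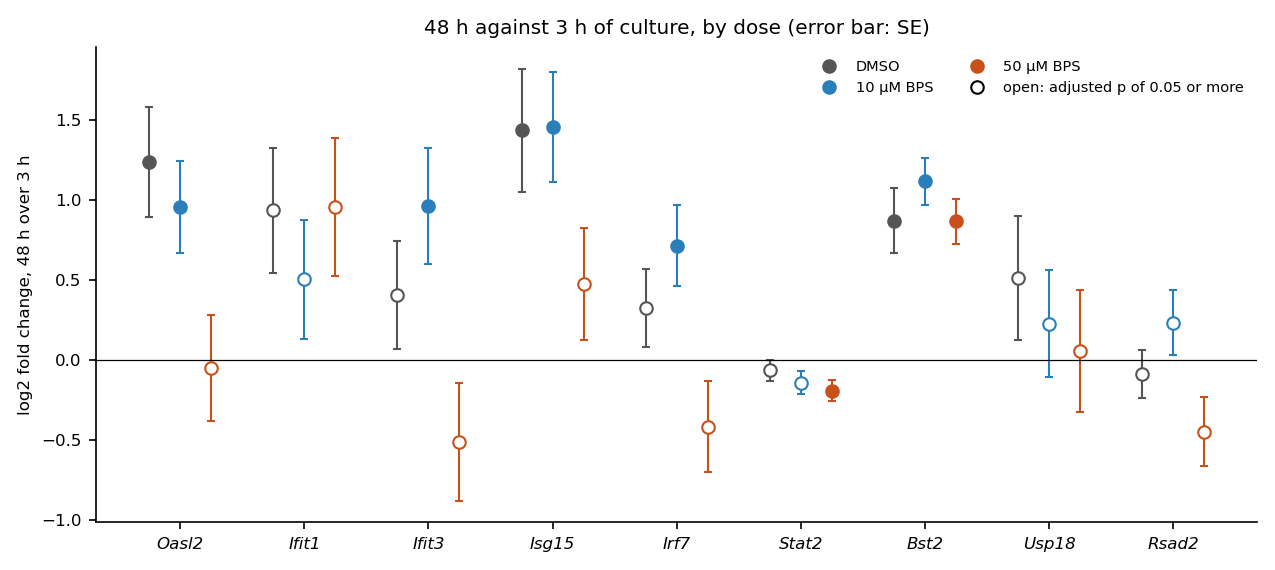
Log2 fold change between 48 h and 3 h of culture for the 9 genes at each dose, with standard errors; filled points have an adjusted p below 0.05. Bst2 is above 0 at all 3 doses (0.87, 1.12 and 0.87), while Oasl2 stands at 1.24 in DMSO, 0.96 at 10 µM and -0.05 at 50 µM.

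The dose comparison asked whether BPS changed these genes at a given time, and it used the same DMSO libraries as the time comparison. At 48 h, 1 of the 9 genes, Oasl2, was called lower with 50 µM BPS than with DMSO, where 1% of all 16663 genes tested changed and 0.522% fell. The count behind that 1%, 167 genes, was 55 to 75 without replicate 1, 2, 3 or 4 of 50 µM or replicate 2 or 4 of DMSO, 282 without replicate 1 of DMSO, 82 with the replicate block and 426 with DESeq2. All 9 log2 differences were below 0, from -1.27 for Oasl2 to -0.00 for Stat2, with a median of -0.66, against 0.00 over all genes tested, of which 48.8% were above 0. An unadjusted p below 0.05 was reached by 5 of the 9 genes, against 12.9% of all genes tested. The 9 genes were chosen with earlier results of these data known, so these counts are not independent evidence.

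Oasl2 had 0.617, 0.998, 0.775, 0.803 and 1.42 CPM with 50 µM BPS at 48 h, against 3.46, 1.75, 2.13, 1.64 and 2.19 CPM with DMSO. Each library at 50 µM lay below each DMSO library, as for 1.68% of all genes tested. The means were 0.923 ± 0.309 CPM with 50 µM BPS and 2.24 ± 0.726 CPM with DMSO (SD, n = 5 each), from 10 to 24 reads per library with 50 µM BPS and 27 to 61 with DMSO, and the log2 difference was -1.27 ± 0.28 (adjusted p = 0.0444, edgeR). The call was close to the threshold. Without replicates 1, 2, 3 or 4 of 50 µM the adjusted p was 0.131, 0.0972, 0.112 and 0.121, and without DMSO replicates 1 to 5 it was 0.0563, 0.0713, 0.0522, 0.0608 and 0.0568, while without replicate 5 of 50 µM it was 0.0275. The log2 difference in these 10 fits ran from -1.47 to -1.06. The adjusted p was 0.0514 with limma-voom and 0.11 with the replicate number as a block, against 0.00377 with DESeq2.

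Isg15 had 0.493, 0.713, 0.969, 0.756 and 1.12 CPM with 50 µM BPS at 48 h, against 2.90, 1.61, 1.32, 1.46 and 0.855 CPM with DMSO. The groups overlapped through the lowest DMSO library, and the log2 difference of -1.01 ± 0.33 did not pass the threshold (adjusted p = 0.185, edgeR). Bst2 had 6.60, 6.56, 8.21, 6.99 and 8.52 CPM with 50 µM BPS, against 10.4, 9.84, 9.55, 8.02 and 7.96 CPM with DMSO, and its log2 difference was -0.32 ± 0.12 (adjusted p = 0.267, edgeR). The groups of Bst2 overlapped between 7.96 and 8.52 CPM.

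Among the regulators, Irf7 had 0.925, 0.903, 0.969, 0.803 and 2.01 CPM with 50 µM BPS at 48 h, against 2.78, 1.99, 1.57, 1.76 and 2.08 CPM with DMSO. Of the 50 µM libraries 4 lay below all DMSO libraries and replicate 5 lay among them, and the log2 difference was -0.87 ± 0.28 (adjusted p = 0.175, edgeR). Without that library the log2 difference was -1.19 (adjusted p = 0.0407, edgeR). Usp18, a protease that removes Isg15 from proteins and dampens signalling of the interferon receptor, averaged 0.565 ± 0.248 CPM with 50 µM BPS and 1.24 ± 0.465 CPM with DMSO (SD, n = 5 each). Its groups overlapped, with a log2 difference of -1.08 ± 0.37 (adjusted p = 0.207, edgeR). Stat2 averaged 32.7 ± 2.75 CPM with 50 µM BPS and 32.7 ± 1.73 CPM with DMSO (SD, n = 5 each).

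The other effectors did not pass the threshold at 48 h either. Rsad2 averaged 2.83 ± 1.06 CPM with 50 µM BPS and 3.50 ± 0.451 CPM with DMSO (SD, n = 5 each), a log2 difference of -0.31 ± 0.22. Ifit1 averaged 0.694 ± 0.329 CPM with 50 µM BPS and 1.10 ± 0.616 CPM with DMSO, a log2 difference of -0.66 ± 0.42. Ifit3 averaged 0.633 ± 0.356 CPM with 50 µM BPS and 0.937 ± 0.303 CPM with DMSO, a log2 difference of -0.57 ± 0.37. The groups overlapped for these 3 genes, and the adjusted p-values ran from 0.54 to 0.595 (edgeR).

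Against 10 µM BPS at 48 h, 50 µM BPS changed none of the 9 genes, where 0.921% of all genes tested changed. An unadjusted p below 0.05 was reached by 4 of the 9, against 11.3% of all genes tested. These 4 were Irf7 (log2 difference -0.99 ± 0.28), Isg15 (-1.08 ± 0.31), Oasl2 (-0.96 ± 0.28) and Rsad2 (-0.54 ± 0.22). Their adjusted p-values were 0.104, 0.104, 0.122 and 0.331 (edgeR). Isg15 was lower in every library of 50 µM, at 0.493 to 1.12 CPM, than in any library of 10 µM, at 1.21 to 2.86 CPM, as were 1.48% of all genes tested. Without replicate 5 of 50 µM the adjusted p of Irf7 was 0.0179. The comparison with 10 µM and that with DMSO share the 5 libraries of 50 µM and are not independent of each other.

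At 24 h, 50 µM BPS changed none of the 8 genes tested against DMSO, where 0.375% of all genes tested changed. Of the 8, 2 had an unadjusted p below 0.05, against 12.4% of all genes tested. With the replicate number as a block, which pairs the libraries at 24 h, 960 genes of the whole table were called in place of 62, but still none of the 9. That count of 62 was 2 to 21 without replicate 2, 3 or 4 of 50 µM or replicate 1, 2, 3 or 4 of DMSO, 105 without replicate 1 of 50 µM and 315 without replicate 5 of DMSO, and DESeq2 gave 270 and limma-voom 23. Usp18 averaged 0.591 ± 0.227 CPM with 50 µM BPS and 1.13 ± 0.340 CPM with DMSO (SD, n = 5 each), with a log2 difference of -0.92 ± 0.34 (adjusted p = 0.26, edgeR). Irf7 averaged 0.917 ± 0.459 CPM with 50 µM BPS and 1.5 ± 0.275 CPM with DMSO, with a log2 difference of -0.69 ± 0.32 (adjusted p = 0.381, edgeR). Of the 8 log2 differences 7 were below 0, where 50.8% of all genes tested were above 0. Ifit1, left out by the low count filter, stood at 0.325, 0.160, 0.280, 0.170 and 0.175 CPM with 50 µM BPS, against 0.456, 0.570, 0.747, 0.367 and 0.383 CPM with DMSO. Its libraries did not overlap, as for 1.42% of all genes tested, but those of 50 µM held 3 to 7 reads, at or little above the floor of 3 reads. Fits that kept the gene gave log2 differences of -1.14 ± 0.58 with no low count filter (adjusted p = 0.488), -1.15 ± 0.53 with the replicate block (adjusted p = 0.23) and -1.13 ± 0.46 in the fit of 45 libraries (adjusted p = 0.3, all edgeR). Against 10 µM at 24 h, none of 8 genes was called and none had an unadjusted p below 0.05, where 0 of all genes tested (0%) changed and 923 had an unadjusted p below 0.05. In that comparison 36 genes of the whole table were called by DESeq2, 0 by limma-voom and 177 with the replicate block, none of them a member. Ifit1, again left out by the filter, averaged 0.222 ± 0.0752 CPM with 50 µM BPS and 0.651 ± 0.237 CPM with 10 µM (SD, n = 5 each). Its log2 difference was -1.50 ± 0.52 with no low count filter (unadjusted p = 0.00432, adjusted p = 0.575, edgeR). It was -1.48 ± 0.50 with the replicate block (unadjusted p = 0.00579, adjusted p = 0.18, edgeR). The fit of 45 libraries gave -1.50 ± 0.44 (unadjusted p = 0.00126, adjusted p = 0.272, edgeR).

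At 3 h, 50 µM BPS changed none of the 8 genes tested against DMSO, where 0.0538% of all genes tested changed. The count behind it, 9 genes, was 1 to 4 without replicate 1, 4 or 5 of 50 µM or replicate 1, 2, 4 or 5 of DMSO, 18 without replicate 2 of 50 µM and 16 without replicate 3 of DMSO. It was 253 with the replicate block, 41 with DESeq2 and 1 with limma-voom, and no member was called in any of these fits. The log2 differences were on both sides of 0, 4 above and 4 below. Stat2 had the lowest p, at 37.1 ± 1.28 CPM with 50 µM BPS and 34 ± 1.35 CPM with DMSO (SD, n = 5 each), and a log2 difference of 0.13 ± 0.059 (adjusted p = 0.599, edgeR). Against 10 µM at 3 h none of 8 was called and Ifit3 had an unadjusted p below 0.05 (log2 difference 0.84 ± 0.36, adjusted p = 0.999, edgeR), where again 0% of all genes tested changed (edgeR, with 737 at an unadjusted p below 0.05, against 0 called by limma-voom and 8 by DESeq2, none of them a member).

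With 10 µM BPS no gene of the whole table was called against DMSO at 3, 24 or 48 h (0% of 16654, 16529 and 16725 genes tested by edgeR, with 329, 494 and 438 at an unadjusted p below 0.05). DESeq2 and limma-voom also called 0 genes there. None of the 9 genes had an unadjusted p below 0.05. At 48 h the 9 log2 differences ranged from -0.62 ± 0.39 for Ifit1 to 0.23 ± 0.18 for Rsad2. Oasl2 averaged 1.798 ± 0.524 CPM with 10 µM BPS and 2.24 ± 0.726 CPM with DMSO (SD, n = 5 each).

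**Figure D4:**
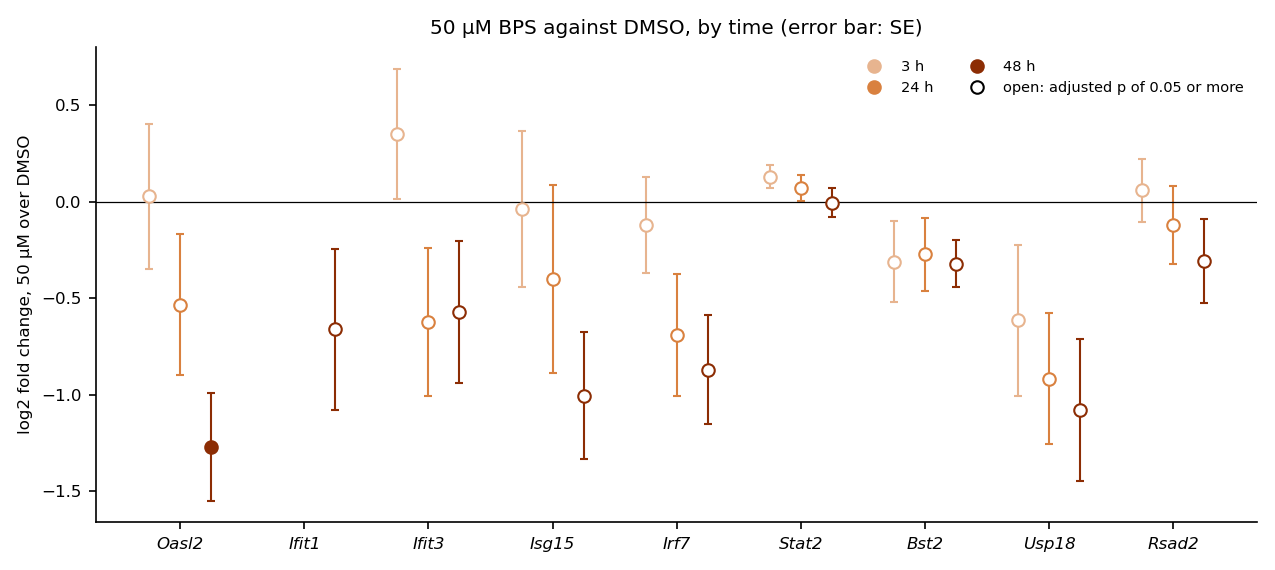
Log2 fold change of 50 µM BPS over DMSO for the 9 genes at 3, 24 and 48 h, with standard errors; filled points have an adjusted p below 0.05, and Ifit1 passed the low count filter at 48 h only. Oasl2 at 48 h (-1.27) is the only filled point, and all 9 points of 48 h lie at or below 0.

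A change of the BPS response with time was tested by interaction terms in a fit of all 45 libraries. None of the 9 genes was called in any of the 6 interaction tests, and of all 18432 genes 17 (0.0922%) were called for 50 µM between 48 h and 3 h and 0 (0%) in the other 5. For 50 µM between 48 h and 3 h the Oasl2 interaction was -1.29 ± 0.50 on the log2 scale (unadjusted p = 0.0131, adjusted p = 0.444, edgeR), and this was the only member with an unadjusted p below 0.05 in these tests. The Oasl2 difference at 48 h was therefore not shown to differ from that at 3 h (0.03 ± 0.38) after adjustment.

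Other genes of the interferon pathway were read from lists by role. Of 21 interferon ligand genes, 4 had a row (Ifnk, Ifne, Ifna13 and Ifnab), none exceeded 4 reads in any library, and none passed the low count filter of edgeR. In the comparisons of 50 µM BPS with DMSO at 24 and 48 h and of 48 h with 3 h in DMSO limbs, DESeq2 called none of them. The receptors and kinases were well expressed, with Ifnar1, a chain of the type I receptor, at 120 ± 5.44 CPM with 50 µM BPS at 48 h and 117 ± 7.41 CPM with DMSO. Between 48 h and 3 h in DMSO limbs 3 of 9 receptor and kinase genes rose, among them Jak2 (log2 difference 0.54 ± 0.066, adjusted p = 3.26e-06) and Il10rb, and 2 fell, among them Ifnar1 (-0.30 ± 0.059, adjusted p = 0.000402, edgeR). Of the 7 STAT and IRF factors counted here 6 rose and none fell, with log2 differences of 0.76 ± 0.059 for Stat3 and 0.92 ± 0.16 for Irf8, a factor of myeloid cells.

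The nucleic acid sensors and adaptors rose in 7 of 12 genes tested between 48 h and 3 h in DMSO limbs, with none lower, among them Ikbke and Tlr7, and the negative regulators rose in 4 of 7, led by Socs1 with a log2 difference of 0.80 ± 0.10. Of 21 tested genes of interferon gamma type responses and antigen presentation 8 rose and none fell, with Tapbp at a log2 difference of 1.23 ± 0.087 and B2m at 0.95 ± 0.092. Among the partners of Isg15 conjugation, the activating enzyme Uba7 rose (log2 difference 0.79 ± 0.15) and the conjugating enzyme Ube2l6 fell (log2 difference -0.72 ± 0.14). These shares stand beside 24.5% of all genes tested higher and 24.8% lower. The Isg15 partners Uba7, Herc6 and Trim25 are also listed among the other type I interferon targets, so the counts of these lists overlap.

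Of 48 other type I interferon targets, 32 were tested between 48 h and 3 h in DMSO limbs, with a median log2 difference of 0.22. Of these 10 rose and 6 fell, against 24.5% and 24.8% of all genes tested. The log2 difference was 2.62 ± 0.18 for Ifi27 and 1.18 ± 0.15 for Samd9l, and -1.60 ± 0.15 for Ifitm1, a membrane protein that restricts viral entry. At 48 h with 50 µM BPS against DMSO, 31 were tested and none was called. Their median log2 difference was -0.38, against 0.00 over all genes. Of the 31, 2 were above 0, against 48.8% of all genes tested, and 15 had an unadjusted p below 0.05, against 12.9%. The 2 with the lowest p were Trim25, a ubiquitin ligase of the Rig-I pathway (log2 difference -0.42 ± 0.097, adjusted p = 0.0501), and Ifi27 (log2 difference -0.38 ± 0.091, adjusted p = 0.0589, edgeR). A fit of all 45 libraries called 4 of them lower, DESeq2 called 3 and limma-voom 0. The receptor, factor, sensor, negative regulator, antigen presentation and Isg15 partner lists had 0 genes called by edgeR or limma-voom in this comparison, and DESeq2 called 1 sensor and 1 Isg15 partner lower. An unadjusted p below 0.05 was reached by 0 of 9, 1 of 7, 3 of 13, 1 of 7, 6 of 20 and 2 of 4 tested genes of these lists. The share over all genes tested was 12.9%.

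Macrophages express many of these genes, and their markers were read in the same comparisons. Between 24 h and 3 h in DMSO limbs, fits without 1 library called 9 to 11 of the 18 markers higher and 1 to 2 lower. The main fit of that comparison called 3315 of 16536 genes tested higher and 3327 lower. At 50 µM between 48 h and 3 h, fits without 1 library called 11 to 12 markers higher and 0 to 2 lower. There 28.3% of all genes tested rose and 29.2% fell in the main fit. The summed level of 18 macrophage and leukocyte markers was 234 ± 36.5 CPM (194.9 to 292 CPM) with 50 µM BPS at 48 h and 325 ± 35.1 CPM (285 to 380.4 CPM) with DMSO (SD, n = 5 each), and no marker was at 0 in either group. At 3 h the sums were 112 ± 5.81 CPM with DMSO, 110 ± 4.34 CPM with 10 µM and 106 ± 6.21 CPM with 50 µM BPS. Between 48 h and 3 h in DMSO limbs 15 of the 18 markers rose, led by Lyz2, the lysozyme of myeloid cells (log2 difference 4.46 ± 0.13), and C1qc, a chain of complement C1q (log2 difference 2.19 ± 0.12). Markers of other cell types also changed in that comparison, where 24.5% of all genes tested rose and 24.8% fell. Called lower were 9 of 10 erythroid markers, 7 of 12 endothelial (1 higher), 9 of 10 limb mesenchyme (1 higher) and 4 of 12 epidermal markers (3 higher). From 3 h to 48 h, the summed level rose from 538 to 840 CPM for epidermal markers. For limb mesenchyme it rose from 4883 to 11683 CPM, although 9 of the 10 markers were called lower. That rise therefore lay in the 1 marker called higher. The summed level fell from 493 to 389 CPM for endothelial and from 2510 to 898 CPM for erythroid markers.

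At 48 h, 4 of the 18 markers were called lower with 50 µM BPS than with DMSO, where 0.522% of all genes tested fell. Csf1r, the receptor that maintains macrophages, averaged 16.4 ± 2.94 CPM with 50 µM BPS and 25.9 ± 1.18 CPM with DMSO (SD, n = 5 each), a log2 difference of -0.67 ± 0.10 (adjusted p = 0.00501, edgeR). C1qc, C1qa and Lyz2 had log2 differences of -0.57 ± 0.11, -0.58 ± 0.13 and -0.65 ± 0.14, with adjusted p-values of 0.0224, 0.0467 and 0.0499 (edgeR). The count was 1 without replicate 1, 3 or 4 of 50 µM or replicate 2 or 4 of DMSO, 2 without replicate 2 of 50 µM or replicate 5 of DMSO, 5 without replicate 5 of 50 µM, 2 with the replicate block, 3 with limma-voom and 7 with DESeq2. All 18 log2 differences were below 0. The part of these markers in the result for the 9 genes was not tested. In RNA of whole limbs, fewer cells of a type and less RNA per cell cannot be told apart. At 24 h, where 0.375% of all genes tested changed, 1 of 16 tested markers, C1qb, was called lower with 50 µM BPS (log2 difference -0.52 ± 0.11, adjusted p = 0.0475, edgeR). With the replicate block 6 were called lower at 24 h, as were 2 of the other type I interferon targets, where 0 were called without it. The block also gave calls in other lists at 24 h: 2 epidermal markers, 1 endothelial, 1 limb mesenchyme and 1 plasmacytoid dendritic and lymphoid marker, 1 STAT or IRF factor and 1 sensor lower, and 1 erythroid marker higher. For the macrophage markers DESeq2 called 5 and limma-voom 0, and leaving out 1 library gave 0, except 5 without DMSO replicate 5. Among 12 endothelial markers Cdh5, a cadherin of vessel walls, was called lower at 48 h (log2 difference -0.33 ± 0.070, adjusted p = 0.0368, edgeR) but not by limma-voom or with the replicate block. No epidermal, erythroid, limb mesenchyme or plasmacytoid dendritic and lymphoid marker was called there by edgeR, DESeq2 or limma-voom, and the last of these lists holds Bst2.

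**Figure D5:**
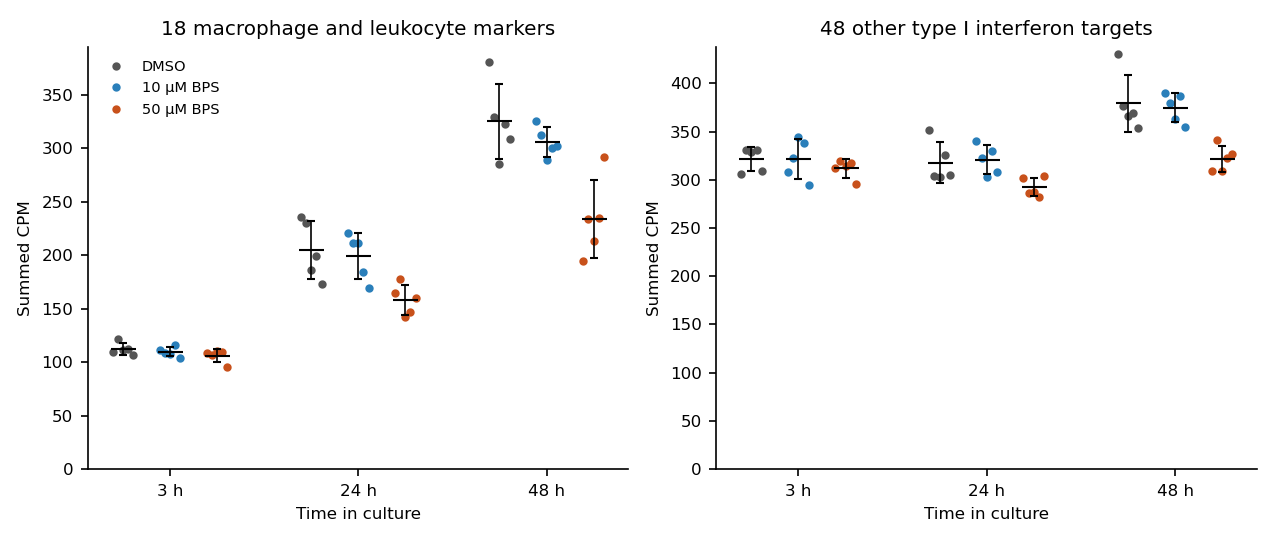
Summed CPM of 18 macrophage and leukocyte markers (left) and of 48 other type I interferon targets (right) in each library, by time and dose; bars are the mean and SD of 5 libraries. Both sums are lower with 50 µM BPS than with DMSO at 48 h, at 234 and 325 CPM for the macrophage markers and 322 and 379 CPM for the interferon targets.

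The 9 genes varied together only in part. With the group means removed, the correlation of each gene with the mean of the other 8 over 45 libraries was 0.61 for Bst2, 0.51 for Oasl2 and Isg15, 0.48 for Rsad2 and 0.42 for Ifit1. It was 0.28 for Ifit3, 0.18 for Usp18, 0.06 for Irf7 and -0.03 for Stat2. The libraries share depth and composition effects, and most of these genes have few reads. Of 15224 genes with at least 1 CPM, those most like the mean of the 9 on the same scale were Atp2a3 (r = 0.60), Bcl3, Ifi35, Ighm, Kif26a, Unc93b1, Gm43863, Stab1, Csf1r and Flt1 (r = 0.54). Over the 9 group means the closest were Hcls1 (r = 0.97), Rnf135, Lrrk1, Esyt1 and Ldha. Of all these genes, Ifi35 was in the list of other type I interferon targets and Csf1r in that of macrophage markers. The others were in none of the lists. How high r would reach by chance among 15224 genes was not tested.

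In the authors' deposited tables of comparisons, Oasl2 was the only one of the 9 with an adjusted p below 0.05 for 50 µM BPS over DMSO at 48 h, with a log2 fold change of -1.27 and an adjusted p of 0.00353. For the DMSO limbs the authors' deposited tables listed Bst2, Isg15 and Oasl2 between 48 h and 3 h, and Bst2 and Oasl2 between 48 h and 24 h. In the other 6 of the authors' deposited tables none of the 9 genes was below 0.05.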

How the data were processed

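Poly-A RNA of 45 cultured forelimb samples was sequenced, and each sample's title gave its group and replicate number. The submitters' processing notes list mm10 and, without roles, the tools DESeq2 (version 2), HTSeq 0.6.1, STAR 2.5 and CASAVA 1.8. Per the file headers, the 9 deposited tables hold raw counts of reads per gene, and every test started from these counts. The same deposited tables give the authors' own log2 fold changes and p-values, which were used only where the authors' tables are named. Deposited FPKM values and scaled counts were not used here.

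Joining the tables on the gene identifier gave 34994 genes, and missing rows were set to 0. Of 1319925 counts found more than once 0 differed. Totals ran from 15.2 to 23.1 M reads. Within groups, libraries differed by more than sampling noise (chi-square per degree of freedom at least 4.42). Two-sided tests used edgeR 4.0.16 (R 4.3.3) with filterByExpr, TMM factors and robust quasi-likelihood dispersion, on the 10 libraries of each of 18 comparisons, and on all 45 for 6 interactions, after a check on simulated data. Benjamini-Hochberg adjustment covered all genes tested, and the SE came from the F statistic. Alternatives were RLE factors, DESeq2 1.42.0, limma-voom (limma 3.58.1), no low count filter, a fit of all 45 libraries, the replicate number as a block, and leaving out each library.

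The 9 members and the 14 gene lists were chosen with earlier results of these data known, and 1 gene of the factor list is not reported here. Named genes of a list are up to 4 called genes by smallest adjusted p, or up to 2 by smallest p where none was called. By the rule used, replicate numbers paired the libraries only in the 3 dose comparisons at 24 h, as a pattern of the data. The correlation of deviations from the group means between same-numbered libraries was above 0.1 for all 5 numbers there, with a lowest value of 0.12. For 50 µM BPS against DMSO at 3 h, 4 of the 5 correlations were above 0.1, with a lowest of 0.079 and a median of 0.371. The median was 0.239 for 50 µM BPS against DMSO at 24 h, so a pairing at 3 h remains possible. The main tests used no pairing. The labels give no shared batch or animal.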

Additional observations from a re-analysis of the deposited data

Results flagged for a closer look

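Within groups of 5 libraries, 7 of 81 combinations of gene and group held a library whose gap to its nearest neighbour exceeded 0.71 of the whole range, the 95% critical value of Dixon's test. Chance gives about 1 in 20. Irf7 with 50 µM BPS at 48 h stood at 2.011 CPM (34 reads) in replicate 5, with the next highest library at 0.9692 CPM, and this library bears on the dose comparison of Irf7 at 48 h. Isg15 in DMSO limbs at 24 h was at 0 CPM (0 reads) in replicate 5, with the next lowest at 0.8861 CPM. Bst2 with 10 µM BPS at 48 h stood at 12.01 CPM (239 reads) in replicate 4, with the next at 8.553 CPM. Rsad2 with 50 µM BPS at 3 h stood at 5.244 CPM (107 reads) in replicate 2, with the next at 3.792 CPM, and the fall of Rsad2 by 24 h was not called without it.

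The other 3 were at 3 h. Oasl2 in DMSO limbs stood at 2.047 CPM (33 reads) in replicate 4, with the next highest at 0.8364 CPM. Ifit3 in the same library stood at 0.2482 CPM (4 reads), below the next lowest at 0.7693 CPM. Isg15 with 10 µM BPS stood at 1.18 CPM (23 reads) in replicate 3, with the next at 0.5875 CPM.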

How the results depend on the processing

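No log2 difference of the 9 genes with an unadjusted p below 0.05 changed sign under any alternative. With 50 µM BPS against DMSO at 48 h, 1 gene was called, and 0 with limma-voom or with the replicate block, while leaving out 1 library gave 0 to 2. The Oasl2 difference there had an adjusted p of 0.00377 with DESeq2, 0.00819 with no low count filter, 0.0302 in the fit of 45 libraries, 0.044 with RLE factors, 0.0514 with limma-voom and 0.11 with the replicate block. Against 10 µM at 48 h, 2 genes were called with no low count filter, and 0 to 1 without single libraries.

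In DMSO limbs between 48 h and 24 h the count of 1 became 4 in the fit of 45 libraries, 2 with DESeq2, limma-voom or no low count filter, and 3 with the replicate block, and 1 to 2 without single libraries; between 48 h and 3 h it was 3 to 4. At 10 µM between 24 h and 3 h it was 1 with no low count filter and 0 to 3 without single libraries, between 48 h and 24 h 2 to 4, and between 48 h and 3 h 4 to 5. At 50 µM between 24 h and 3 h it was 3 in the fit of 45 libraries, 2 with limma-voom and 0 to 2 without single libraries. At 50 µM between 48 h and 24 h it was 2 in the fit of 45 libraries, with DESeq2, with no low count filter and with the replicate block, and 1 to 2 without single libraries, and between 48 h and 3 h it was 2 to 4. At 50 µM between 48 h and 24 h the second gene of the named fits was Ifit1, which the low count filter left out of the main test. The causes of the other shifts were not tested. In the other 7 dose comparisons, in DMSO limbs between 24 h and 3 h and in the interactions the counts stayed at 0 under all alternatives run. The replicate block changed no other count of called members by over 1.5 times, the dose comparisons at 24 h included. Mean CPM of each gene and group without TMM factors moved by less than 1 SD. Low counts, with 0 to 61 reads per library for Oasl2, Ifit1, Ifit3, Isg15, Irf7 and Usp18, limit the precision of these genes.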
